A study of Mus musculus with 59 samples.

Results

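Messenger RNA of the 6 NMDA receptor subunit genes Grin1, Grin2a, Grin2b, Grin2c, Grin2d and Grin3a was followed over 59 sequencing libraries of mouse prefrontal cortex. The 6 genes were taken by name after the 51456 Ensembl identifiers of the deposited table had been matched to mouse symbols, and all 6 were among the 16919 genes with enough signal to be tested. The libraries came from C57BL/6J mice of both sexes at postnatal day 25, right after 3 weeks (days 3 to 24) of drug or vehicle taken in through the mother's milk. The 6 groups were HT fluoxetine (10 libraries), HT lithium (10), HT vehicle (10), WT fluoxetine (9), WT lithium (10) and WT vehicle (10), where HT is heterozygous for Ank2 and WT is wild type. Ank2 codes for ankyrin-B, a membrane adaptor, fluoxetine blocks serotonin reuptake, and lithium is a mood stabilizer. The labels give no dose, no litter and no description of the Ank2 allele, and pups of 1 dam share her milk, so litter and drug cannot be told apart. Nothing in the labels says how animals relate to libraries, so p-values measure the spread between these libraries.

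NMDA receptors are glutamate-gated channels of 4 subunits that let in calcium and serve synaptic plasticity. Grin1 codes for GluN1, the glycine-binding subunit that every such receptor needs. Grin2a to Grin2d code for the glutamate-binding GluN2 subunits, which set the speed and the block of the channel, and Grin3a codes for GluN3A, a glycine-binding subunit that lowers calcium entry. In the rodent cortex GluN2B dominates before birth and GluN2A is added over the first postnatal weeks, a well-known switch of synaptic receptors, while GluN2C is found largely in glia and GluN2D in interneurons.

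The 6 genes are paralogs, and a conserved coding stretch shows how alike their sequences can be. It codes for the end of the third membrane segment, near the channel gate, and is shown for 1 gene of each kind of subunit (GluN1, GluN2 and GluN3). Each copy lies in 1 exon on the minus strand of GRCm38. Capitals mark the 24 of 45 bases that are the same in these 3 genes (5′ to 3′, coding strand).
Grin1 (chr2:25297190-25297234): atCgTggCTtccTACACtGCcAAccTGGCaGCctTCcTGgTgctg
Grin2c (chr11:115253740-115253784): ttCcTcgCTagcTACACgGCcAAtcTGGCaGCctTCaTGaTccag
Grin3a (chr4:49770461-49770505): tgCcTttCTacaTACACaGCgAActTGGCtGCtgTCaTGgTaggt
Grin1 and Grin2c shared 34 of these 45 bases, Grin2c and Grin3a 28, and Grin1 and Grin3a 27. Over whole annotated transcripts the longest run of bases that 2 of the genes have in common was 34 (Grin2b with Grin2c), and for Grin2a with Grin2b it was 24. The read length is not given in the sources used here, and how well reads of these genes can be told apart was not tested.

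Deposited values added up to between 30294700 and 33772300 in a library (rounded), and 22566 to 23745 genes were above 0. The label of cortex was checked on a neuron marker: Slc17a7, a vesicular glutamate transporter of excitatory cortical neurons, lay between 34580 and 60474. HT fluoxetine female replicate 2 stood apart from its group, with 77855 for the summed choroid plexus markers, against 71.3 to 222 in the other 58 libraries, and with 7413 for the dentate gyrus markers. WT fluoxetine male replicate 1 stood apart as well, with 7631 for the olfactory bulb markers and the steepest trend on transcript length (a slope of 0.101, explained with the length results). Both were marked by a low median correlation with their own group (0.957 and 0.978, against a median of 0.987 over libraries). The rule was more than 5 median absolute deviations under that median, and markers played no part in it. WT lithium male replicate 1 (7651) and WT vehicle female replicate 1 (8513) had higher bulb sums and did not stand apart. Olfactory bulb markers varied from 146 to 8513 between libraries. Summed striatum markers varied as well, with 11666 in HT lithium male replicate 1 (group median 4074) and 10029 in HT vehicle male replicate 2 (group median 3589). The part of striatum markers in the subunit results was not tested. In bulk RNA fewer cells of a type and less RNA per cell cannot be told apart.

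Grin1 and Grin2b were the most abundant subunits and Grin2d the least. Per kilobase of annotated exons, the normalized value over all 59 libraries averaged 1723 ± 133 for Grin1, 1066 ± 164 for Grin2b, 464 ± 71.5 for Grin2a, 334 ± 32.7 for Grin2c, 152 ± 13.9 for Grin3a and 79.7 ± 10.4 for Grin2d (SD, n = 59). Every neighbouring pair kept this order in all 59 libraries, except Grin2a over Grin2c in 58. Of the summed GluN2 values per kilobase, Grin2b made up 54.7% ± 2.84, Grin2a 23.8% ± 1.89, Grin2c 17.4% ± 2.42 and Grin2d 4.16% ± 0.769. Per kilobase of coding sequence these shares were 70.5% ± 2.08 for Grin2b, 22.5% ± 1.77 for Grin2a, 5.46% ± 0.912 for Grin2c and 1.62% ± 0.339 for Grin2d, so those of Grin2c and Grin2d depend on the length used. On that scale the first places changed: Grin2b was above Grin1 in 33 of 59 libraries, and Grin3a moved ahead of Grin2c in 55. The mean of Grin2b was above that of Grin1 in WT fluoxetine (7119 against 6192), HT fluoxetine (6743 against 6262) and HT lithium (5850 against 5702). It was below in WT lithium (5130 against 5371), WT vehicle (5477 against 5754) and HT vehicle (5544 against 5615). The difference between these 2 genes was not tested. The gene lengths differ, with 24.8 kb of exons in Grin2b (chr6:135713233-136173511), 17.9 kb in Grin2a (chr16:9567898-9995560) and 9.7 kb in Grin1 (chr2:25291181-25319187). Grin3b, the remaining subunit gene of the family, was between 0 and 11.5 and was not tested.

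**Figure D1:**
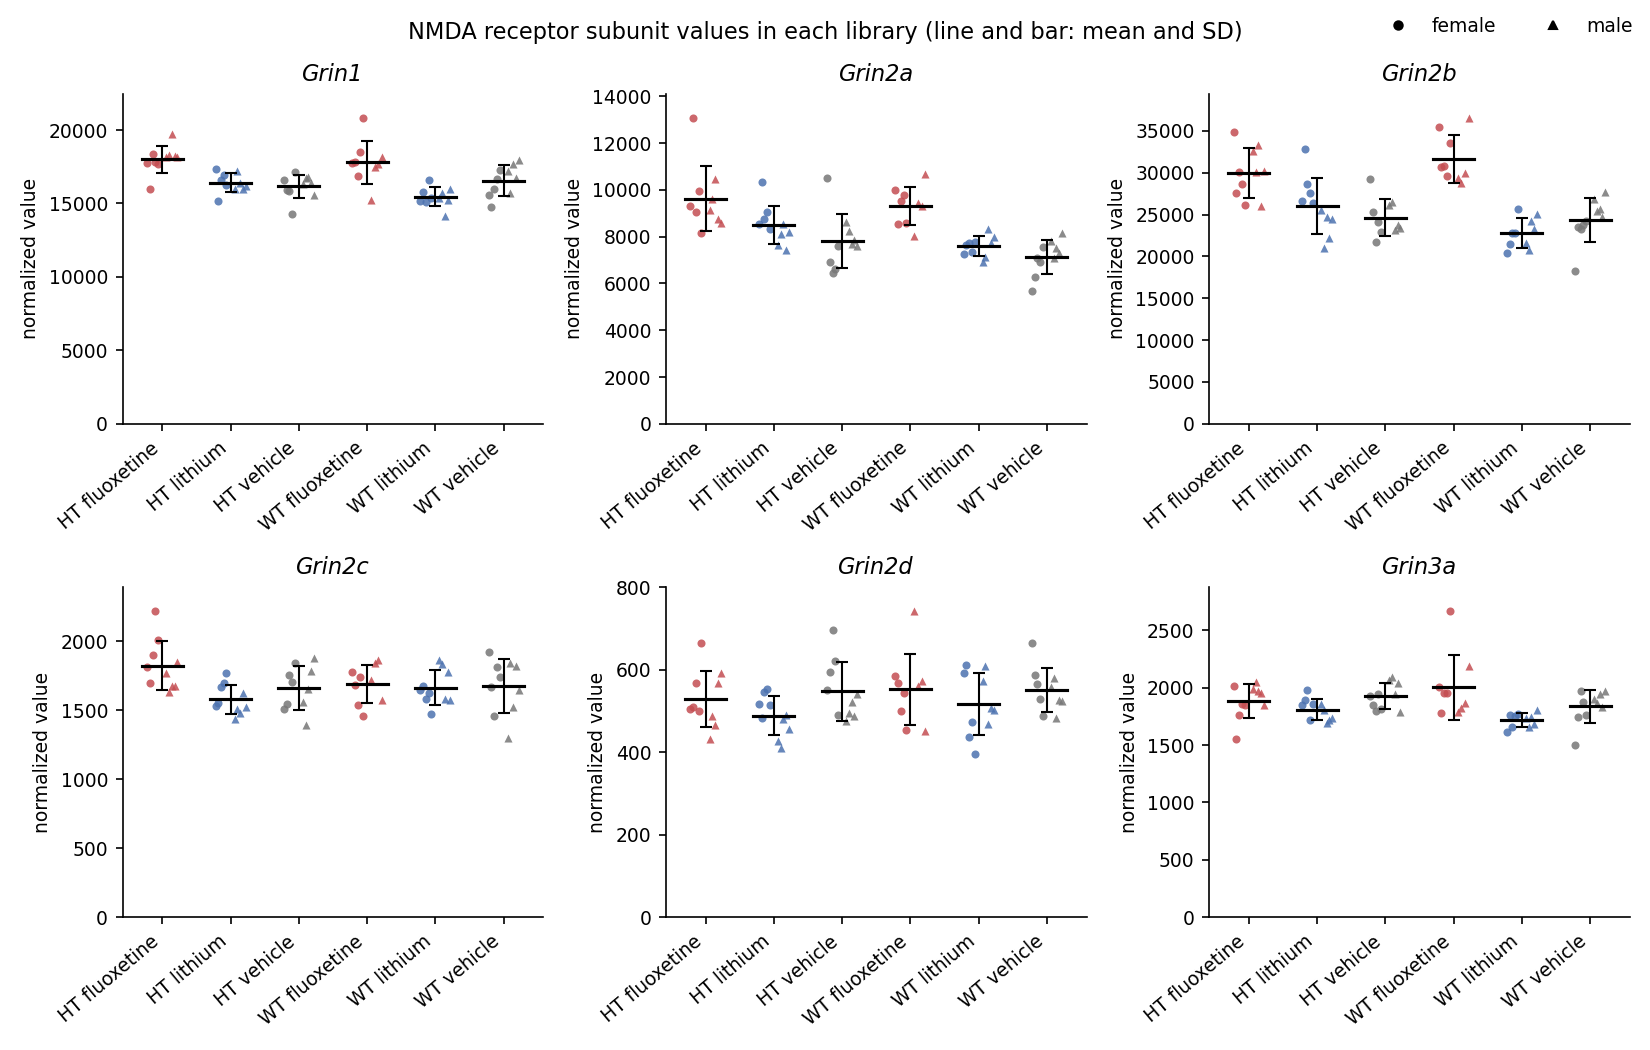
Normalized value (vertical axis, from 0) of each subunit gene in each of 59 libraries, by genotype and drug, with circles for females and triangles for males. Lines and bars are means and SD (n = 10, WT fluoxetine 9). For Grin2b all 9 WT fluoxetine libraries lie above the highest WT vehicle library at 27751.

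Fluoxetine went with more mRNA of the shared subunit Grin1 and of the GluN2 subunits Grin2a and Grin2b, and with no called change of Grin2c, Grin2d or Grin3a. Averaged over genotypes, 3 of 6 subunits were called higher and 0 lower, where 13.2% of all genes tested were called higher. Within HT 3 of 6 were called higher (6.63% of genes), and within WT 2 of 6 (7% of genes). The median averaged log2 change of the 6 was 0.10, against -0.00 over all genes. Markers of other cells moved in the same comparison: 3 of 3 oligodendrocyte precursor markers (median log2 change 0.22) and 2 of 4 microglia markers (median 0.10) were called higher, and 3 of 3 blood markers (median -0.69) and 1 of 7 inhibitory neuron markers (median -0.10) lower. Of the other lists, 2 of 7 excitatory neuron, 1 of 6 astrocyte and 1 of 3 endothelial markers were higher, 1 of 3 endothelial markers was lower, and 0 of 5 oligodendrocyte markers were called. The summed blood markers lay between 2640.3 and 6369 in HT fluoxetine, against 5426 to 9510.4 in HT vehicle, and between 3155 and 6214 in WT fluoxetine, against 4561 to 7723 in WT vehicle libraries. The summed precursor markers lay between 3528 and 5776 in HT fluoxetine, against 2898 to 4088 in HT vehicle, and between 2709.7 and 3859.8 in WT fluoxetine, against 2537 to 3680.2 in WT vehicle libraries. The summed microglia markers lay between 6388 and 9260.3 in HT fluoxetine, against 5943 to 7706 in HT vehicle, and between 6486 and 7316 in WT fluoxetine, against 5545 to 7004 in WT vehicle libraries. The summed inhibitory neuron markers lay between 20167.9 and 27566 in HT fluoxetine, against 22562 to 30869 in HT vehicle, and between 21998 and 35926 in WT fluoxetine, against 23245 to 37245 in WT vehicle libraries. All of these ranges overlap, and their part in the subunit results was not tested. Calls here are adjusted p-values under 0.05 (limma on log2(value + 1), Benjamini-Hochberg over all genes).

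Grin2b, the subunit of early cortical receptors, lay between 28803 and 36557 in WT fluoxetine libraries (median 30745), against 18279 to 27751 in WT vehicle libraries (median 24459.8). All 9 WT fluoxetine libraries were above the highest WT vehicle library. In HT mice Grin2b lay between 26068 and 34878 with fluoxetine (median 30136), against 21728 to 29308 with vehicle (median 23979). Of the 10 HT fluoxetine libraries 6 were above the highest HT vehicle library, and all 10 were above the vehicle median. The log2 change was 0.28 in HT (SE 0.06, limma adjusted p = 0.00047) and 0.38 in WT (SE 0.06, adjusted p = 6.23e-06). These are rises of 1.22-fold and 1.30-fold.

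Grin2a, the subunit that joins as the cortex matures, lay between 8013 and 10697 in WT fluoxetine libraries (median 9439), against 5668 to 8149 in WT vehicle libraries (median 7202). The groups overlapped by 1 library, since 8 of 9 were above the highest vehicle library. In HT mice Grin2a lay between 8153 and 13078 with fluoxetine (median 9236), against 6463 to 10504 with vehicle (median 7641). Here 1 of 10 passed the highest vehicle library, and all 10 passed the vehicle median. The highest value of each HT group came from a single female library, 13078 from fluoxetine replicate 2, which stood apart above, and 10504 from vehicle replicate 1. The log2 change was 0.30 in HT (SE 0.07, limma adjusted p = 0.00101) and 0.39 in WT (SE 0.07, adjusted p = 4.25e-05). Without the libraries that stood apart it was 0.25 in HT (adjusted p = 0.0022) and 0.42 in WT (adjusted p = 2.45e-06).

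Grin1 moved less. It lay between 15956 and 19702 in HT fluoxetine libraries (median 18167), against 14289 to 17128 in HT vehicle libraries (median 16369.8). Of the 10 HT fluoxetine libraries 9 were above the highest vehicle library, and the exception was again female replicate 2. In WT mice Grin1 lay between 15259 and 20820.4 with fluoxetine (median 17760.4), against 14736 to 17979.7 with vehicle (median 16700.1), and 3 of 9 were above the highest vehicle library. The log2 change was 0.16 in HT (SE 0.04, limma adjusted p = 0.00157) and 0.10 in WT (SE 0.04, adjusted p = 0.0602), so the WT change missed the threshold. Without the libraries that stood apart the WT change was 0.13 and was called (adjusted p = 0.00839). It was also called without any 1 of 6 libraries, as the closing section lists.

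Grin2c, Grin2d and Grin3a were not called with fluoxetine in either genotype. Grin2c was called in HT with the olfactory bulb covariate described below (0.17, limma adjusted p = 0.0383), and Grin3a in WT without WT fluoxetine female replicate 2 (0.14, adjusted p = 0.0449). Grin2c lay between 1630.4 and 2214 in HT fluoxetine libraries, against 1392 to 1881 in HT vehicle libraries (log2 change 0.13, 95% interval 0.02 to 0.25, adjusted p = 0.0998). Grin2d had a log2 change of -0.05 in HT (interval -0.20 to 0.10) and 0.00 in WT (interval -0.15 to 0.16). For Grin3a it was -0.03 in HT (interval -0.13 to 0.06) and 0.11 in WT (interval 0.01 to 0.21, adjusted p = 0.119). The groups of these 3 genes overlapped in both genotypes, and at most 3 fluoxetine libraries were above the highest vehicle library.

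**Figure D2:**
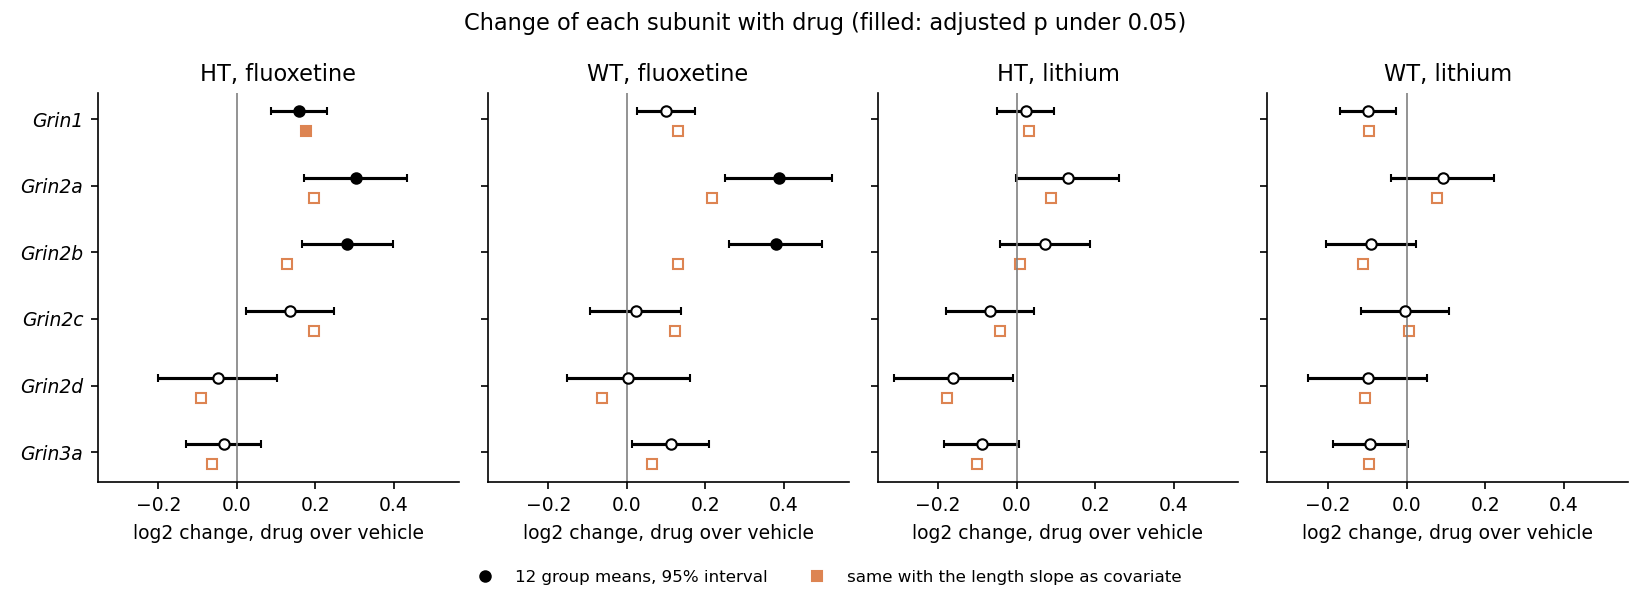
Log2 change of each subunit with drug over vehicle (horizontal axis) in HT and WT mice, with black circles for the fit of 12 group means with 95% intervals and orange squares for the same fit with the length slope of each library as a covariate. Filled symbols are called. Grin2a and Grin2b are filled in both fluoxetine panels for the circles, with log2 changes of 0.28 to 0.39, and open for the squares, and no lithium symbol is filled.

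No difference of the fluoxetine effect between genotypes was called for any subunit, where 0% of all genes were called (limma, 1291 genes at an unadjusted p under 0.05). HT minus WT, the effect differed by -0.08 for Grin2a (95% interval -0.27 to 0.10), -0.10 for Grin2b (interval -0.26 to 0.07) and 0.06 for Grin1 (interval -0.04 to 0.16). The interval left out 0 for Grin3a only (-0.15, interval -0.28 to -0.01, adjusted p = 0.639). Within females, 2 of 6 subunits were called higher in HT (Grin2a and Grin2b, where 4.31% of genes were called higher), and 4 of 6 in WT (Grin1, Grin2a, Grin2b and Grin3a, where 4.58% were). Within males, 2 of 6 were called higher in HT (Grin1 and Grin2b, where 0.975% of genes were called higher), and 0 of 6 in WT (5.3% of genes in either direction), where Grin2a had a log2 change of 0.30 (limma adjusted p = 0.0594). The effect was not called different between the sexes for any subunit. Female minus male, the difference was 0.17 for Grin2a (interval -0.02 to 0.36) and 0.10 for Grin2b (interval -0.06 to 0.27).

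Grin2a and Grin2b have the longest transcripts of the 6 genes, and transcript length went with the fluoxetine change over all genes. The median log2 change was -0.16 for the 785 genes with a longest transcript of 0.5 to 1 kb and 0.14 for the 75 genes over 15 kb. In the 329 genes of 10 to 15 kb, to which Grin2a belongs (14.6 kb), the median was 0.12 and the upper quartile 0.18, against 0.34 for Grin2a. Grin2b, at 24.1 kb, changed by 0.33, against an upper quartile of 0.20 for the genes over 15 kb. Grin1 (4.28 kb) changed by 0.13, against an upper quartile of 0.08 for the 2466 genes of 4 to 5 kb.

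**Figure D3:**
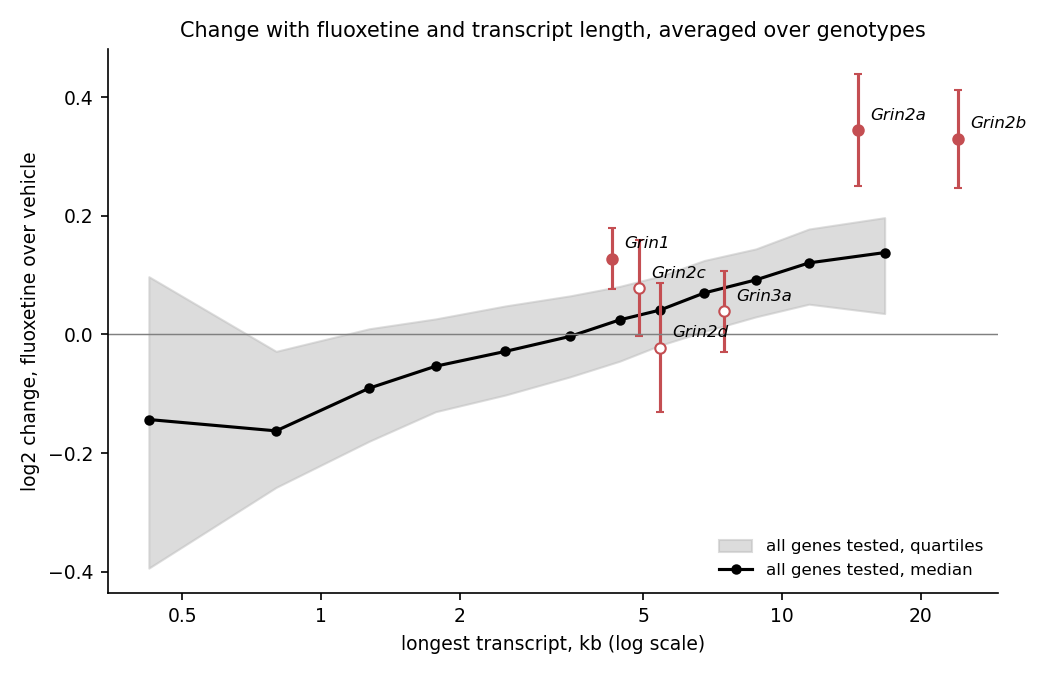
Log2 change with fluoxetine over vehicle, averaged over genotypes, against the length of the longest annotated transcript (log scale). The black line and grey band give the median and quartiles of all genes tested in 12 length classes, and red points the 6 subunits with 95% intervals (filled when called). Grin1, Grin2a and Grin2b lie above the upper quartile of their length class, and Grin2d at -0.02 lies under the median.

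The length slope of a library is the slope of its log2 deviations on log2 transcript length. It averaged 0.0319 ± 0.0225 in HT fluoxetine, 0.000659 ± 0.05 in HT lithium and -0.0216 ± 0.0391 in HT vehicle libraries (SD, n = 10 each). In WT it was 0.053 ± 0.0239 with fluoxetine (n = 9), -0.0257 ± 0.0137 with lithium and -0.033 ± 0.0137 with vehicle (n = 10 each). So the slope moved with fluoxetine, in the same libraries as the 2 long subunits. With the trend on length and GC content removed from each library, the averaged changes were 0.21 for Grin2a (limma adjusted p = 0.000348), 0.15 for Grin2b (adjusted p = 0.000802) and 0.10 for Grin1 (adjusted p = 0.00183), and all 3 stayed called. With the slope as a covariate, Grin2a (0.21, adjusted p = 0.0735) and Grin2b (0.13, adjusted p = 0.172) were no longer called and Grin1 was (0.15, adjusted p = 0.0174). Drug and length slope overlap in these libraries and cannot be told apart with this covariate.

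Lithium moved no single subunit past the threshold. In HT 0 of 6 were called, where 5.01% of genes were, and in WT 0 of 6, where 2.22% were. Averaged over genotypes 0 of 6 were called against 10.2% of genes. The lithium and fluoxetine comparisons share their vehicle libraries. Grin3a came nearest, with 1688 to 1975 in HT lithium libraries (median 1827), against 1786 to 2089 in HT vehicle libraries (median 1933). In WT mice it lay between 1614 and 1801 with lithium (median 1742), against 1499 to 1975 with vehicle (median 1872). All 10 WT lithium libraries and 9 of 10 HT lithium libraries were at or under the vehicle median of their genotype. The averaged log2 change of Grin3a was -0.09 (SE 0.03, limma adjusted p = 0.0726), that of Grin2d -0.13 (SE 0.05, adjusted p = 0.113) and that of Grin2a 0.11 (SE 0.05, adjusted p = 0.122). Grin3a was called lower with 6 of the other settings named in the closing section, with log2 changes of -0.09 to -0.11. Averaged without HT vehicle female replicate 1, Grin2a was called higher (0.14, limma adjusted p = 0.0149).

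The ratio of Grin2a to Grin2b, which compares the 2 main cortical GluN2 subunits within a library, differed with lithium and not detectably with fluoxetine. It was taken from the normalized values without a length correction. In WT mice it lay between 0.304 and 0.357 with lithium (median 0.335), against 0.268 to 0.313 with vehicle (median 0.293). Lithium libraries were almost wholly above vehicle libraries: all 10 were above the vehicle median, and the ranges met only between 0.304 and 0.313. The mean was 0.333 ± 0.0177 with lithium and 0.294 ± 0.0137 with vehicle (SD, n = 10 each), a ratio 1.13-fold as high (log2 difference 0.18, 2-sided exact permutation within sex, p = 0.000126, adjusted p = 0.00176 over 14 comparisons). The difference was 0.17 in females and 0.19 in males. Neither gene was called alone in WT: Grin2a had a log2 change of 0.09 and Grin2b of -0.09.

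In HT mice the ratio averaged 0.329 ± 0.0251 with lithium and 0.316 ± 0.0273 with vehicle (SD, n = 10 each; log2 difference 0.06, exact permutation p = 0.254, adjusted p = 0.444). The HT groups overlapped in most of their range, with 5 of 10 lithium libraries above the vehicle median. A permutation test of the difference between genotypes, with genotype permuted within drug and sex, gave HT minus WT of -0.12 (100000 resamples, p = 0.0575). This test was chosen after seeing the data. Averaged over genotypes the lithium difference was 0.12 (permutation, adjusted p = 0.00233). HT lithium libraries were also above WT vehicle libraries, which the WT comparison shares (log2 difference 0.16, exact permutation, adjusted p = 0.00233, 10 of 10 above the WT vehicle median).

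With fluoxetine the ratio averaged 0.324 ± 0.0584 in HT, against 0.316 ± 0.0273 with vehicle (log2 difference 0.02, exact permutation, n = 10 each, adjusted p = 0.864). In WT it averaged 0.296 ± 0.0256 with fluoxetine (n = 9), against 0.294 ± 0.0137 with vehicle (log2 difference 0.01, exact permutation, adjusted p = 0.864). Here Grin2a and Grin2b rose by about the same factor, so the ratio moved by less than its spread. The highest ratio of all, 0.474, was that of HT fluoxetine female replicate 2. Fluoxetine against lithium in WT differed by -0.17 on the log2 scale (exact permutation, adjusted p = 0.00871, 0 of 9 fluoxetine libraries above the lithium median). HT against WT under vehicle differed by 0.10 and missed the threshold after adjustment (exact permutation, p = 0.0428, adjusted p = 0.12, 8 of 10 HT libraries above the WT median).

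**Figure D4:**
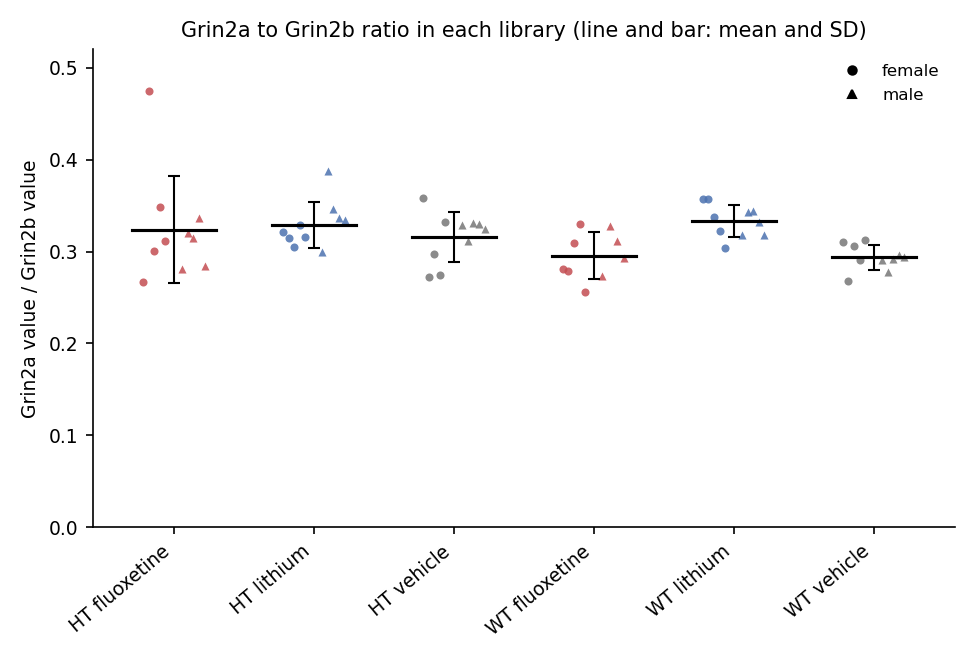
Ratio of the Grin2a value to the Grin2b value (vertical axis, from 0) in each of 59 libraries by genotype and drug, with circles for females and triangles for males, and mean and SD per group. WT lithium libraries lie between 0.304 and 0.357, against 0.268 to 0.313 for WT vehicle, and 1 HT fluoxetine library stands at 0.474.

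Ank2 genotype gave no called change of any subunit. HT against WT, 0 of 6 were called under fluoxetine (background 0.0118% of genes), 0 of 6 under lithium (background 0.55%) and 0 of 6 under vehicle (background 0.00591%). Under vehicle Grin2a lay between 6463 and 10504 in HT libraries, against 5668 to 8149 in WT libraries (log2 change 0.12, 95% interval -0.01 to 0.25). Grin1 changed by -0.03 (interval -0.11 to 0.04) and Grin2b by 0.02 (interval -0.09 to 0.14). Under lithium Grin2b lay between 20988 and 32869.6 in HT, against 20363 to 25624 in WT (log2 change 0.18, SE 0.06, limma adjusted p = 0.108). HT lithium females had 26399 to 32869.6 and HT lithium males 20988 to 25524, so the sexes did not overlap, and the length slope split the same libraries, at 0.0434 ± 0.0269 in females and -0.0421 ± 0.0186 in males (SD, n = 5 each). A difference of the lithium effect between the sexes, averaged over genotypes, was not called for Grin2b (female minus male 0.23, SE 0.08, limma adjusted p = 0.186). The difference of the lithium effect between genotypes was not called for any subunit (0% of genes, limma, 1139 at an unadjusted p under 0.05), with HT minus WT of 0.12 for Grin1 (interval 0.02 to 0.22). No subunit was called between females and males over all groups, where 2.1% of genes were.

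Set directly against lithium, fluoxetine was higher for 4 of 6 subunits in WT (Grin1, Grin2a, Grin2b and Grin3a, where 10.1% of genes were called higher) and 3 of 6 in HT (Grin1, Grin2b and Grin2c, where 6.18% were). The largest was Grin2b in WT, with a log2 change of 0.47 (SE 0.06, limma adjusted p = 7.73e-08), and all 9 WT fluoxetine libraries were above the 10 WT lithium libraries. Against WT vehicle mice, HT mice with fluoxetine had 3 of 6 higher (Grin1, Grin2a and Grin2b, where 9.05% of genes were called higher) and HT mice with lithium 1 of 6 (Grin2a, log2 change 0.25, limma adjusted p = 0.0129, where 4.16% were). These comparisons share libraries with those above. For HT fluoxetine against WT vehicle, Grin1 lost its call under library-sum scaling (0.08, limma adjusted p = 0.071), quantile normalization (0.06, adjusted p = 0.134), length and GC removal (0.08, adjusted p = 0.104) and the bulb covariate (0.11, adjusted p = 0.0575), and Grin2b with the length slope (0.11, adjusted p = 0.264). Grin2c gained one with the bulb covariate (0.18, adjusted p = 0.0327). For HT lithium against WT vehicle, Grin2a lost its call with the bulb covariate (0.15, adjusted p = 0.127) and with the length slope (0.19, adjusted p = 0.093). For fluoxetine against lithium, the length slope ended the calls of Grin2a and Grin3a in WT and of Grin2b in HT, and length and GC removal those of Grin2a and Grin3a in WT.

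Within groups Grin2b varied together with Grin2a and with Grin3a, and against Grin2c and Grin2d. After the 12 group means were taken off, Grin2a and Grin2b went together over the 59 libraries (Pearson's r = 0.55, Spearman's rho = 0.55), as did Grin2b and Grin3a (r = 0.53, rho = 0.56) and Grin2c and Grin2d (r = 0.35, rho = 0.41). No relation was called between Grin2a and Grin3a (r = 0.10, rho = 0.25, permutation adjusted p = 0.543 for r). Further pairs were negative, with r = -0.56 for Grin2b and Grin2d (rho = -0.52), -0.54 for Grin2a and Grin2d (rho = -0.57) and -0.49 for Grin2b and Grin2c (rho = -0.50). The 6 related pairs named so far had permutation p-values of at most 0.00677 for r (at most 0.0153 adjusted over 29 relations). Each kept its sign without the 2 libraries farthest on the first gene. Also called were Grin1 with Grin3a (r = 0.46), Grin2d with Grin3a (-0.46), Grin2c with Grin3a (-0.42) and Grin2a with Grin2c (-0.41). Grin1 with Grin2d was called near the threshold (r = -0.34, permutation adjusted p = 0.0469).

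Markers of the olfactory bulb, which borders the prefrontal cortex, varied with the subunits inside groups. Of the 6 subunits Grin2d was the most closely related to the summed values of 5 bulb markers (r = 0.71, rho = 0.75, permutation adjusted p = 0.00029), and Grin2a went the other way (r = -0.62, rho = -0.59, adjusted p = 0.00029). Without the 2 farthest libraries r was 0.69 for Grin2d and -0.54 for Grin2a. The ratio of Grin2a to Grin2b went the same way more weakly (r = -0.38, adjusted p = 0.0343; rho = -0.28, adjusted p = 0.0866). The medians of the marker sum were 935 in HT fluoxetine, 1591 in HT lithium, 2114 in HT vehicle, 2385 in WT fluoxetine, 3161 in WT lithium and 2565 in WT vehicle libraries, and all ranges overlapped. With this sum as a covariate, chosen after seeing the data, the averaged fluoxetine changes were 0.29 for Grin2a, 0.30 for Grin2b and 0.12 for Grin1, all still called. With its slope taken off, the lithium difference of the ratio in WT was 0.17 (permutation, adjusted p = 0.00529), while that of HT lithium against WT vehicle was 0.10 and lost its call (adjusted p = 0.0586).

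**Figure D5:**
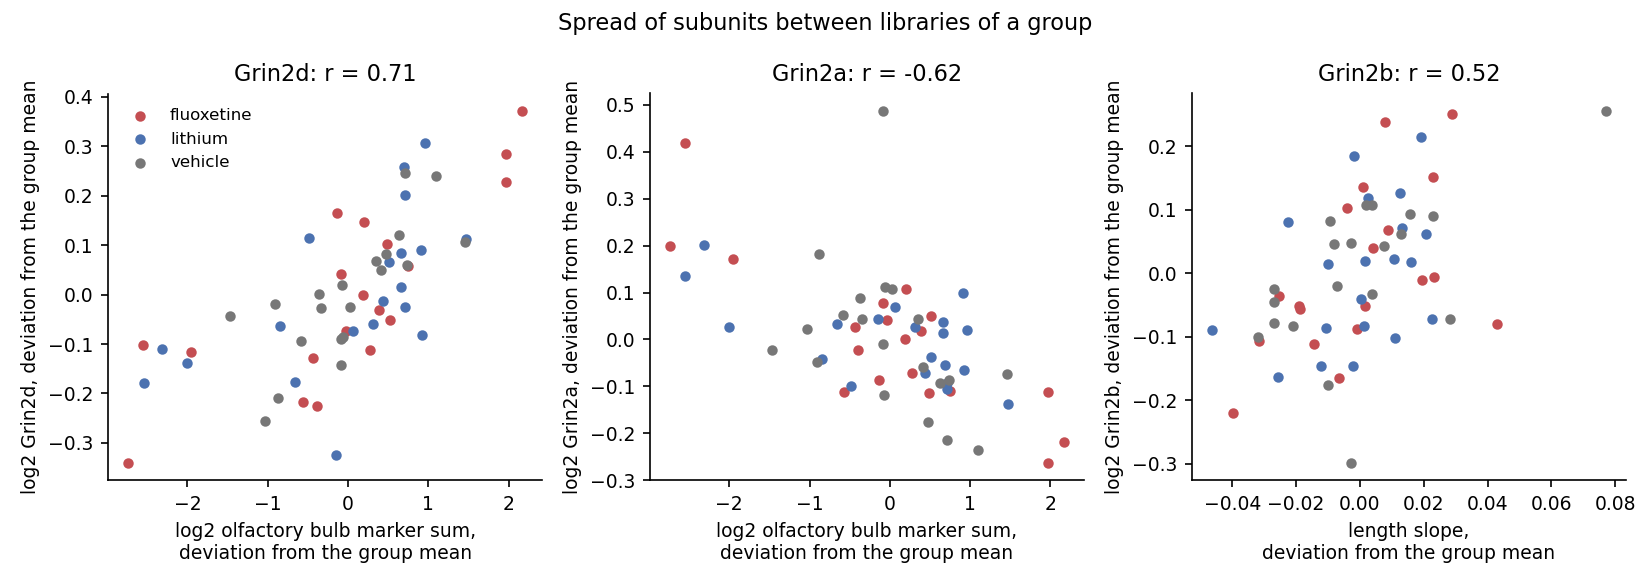
Deviation of log2 values from the mean of the library's own group, for Grin2d and Grin2a against the olfactory bulb marker sum (log2) and for Grin2b against the length slope, over 59 libraries coloured by drug. Grin2d rises with the marker sum (r = 0.71), Grin2a falls (r = -0.62), and Grin2b rises with the length slope (r = 0.52).

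The length slope went with Grin2b inside groups too (r = 0.52, rho = 0.53, permutation adjusted p = 0.00170), with r = 0.45 without the 2 farthest libraries. For the other 5 subunits |r| was at most 0.31. The 3 genes most like each subunit after group means were taken off, by Pearson's r over 59 libraries, were sought among the 13924 genes that averaged 50 or more and are given as a description. They were Dnm1 (0.84), Ap2m1 (0.77) and Pacs1 (0.76) for Grin1. For Grin2a they were Gabrb1 (0.89), Paqr9 (0.88) and Epha4 (0.85), and for Grin2b Scn2a (0.88), Cd47 (0.86) and Akap6 (0.84). Dnm1 codes for neuronal dynamin, Gabrb1 for a GABA-A receptor subunit, Scn2a for a sodium channel and Slc6a11 for a GABA transporter. For Grin2c they included Apcdd1 (0.69) and Lrp4 (0.69), for Grin2d Slc6a11 (0.84), Peli2 (0.84) and Pde3a (0.84), and for Grin3a Atp6v1b2 (0.73), Rgs17 (0.72) and Slc2a3 (0.72). With group means left in, the nearest gene was Dnm1 for Grin1 (0.91), Gabrb1 for Grin2a (0.94) and Cd47 for Grin2b (0.90).

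Genes that work with the receptor followed fluoxetine in part. Of 14 membrane scaffold genes 8 were called higher and 0 lower with fluoxetine averaged over genotypes (median log2 change 0.10), led by Shank1, a postsynaptic scaffold (0.32, limma adjusted p = 2.39e-08), Dlgap1 (0.14) and Dlgap2 (0.15). Of 18 signalling partners 7 were higher and 1 lower (median 0.08), among them Camk2a, a kinase that binds GluN2B (0.21, limma adjusted p = 0.000125), Kalrn (0.17) and Rasgrp1 (0.19). Of 16 kinases, phosphatases and anchors 8 were higher and 3 lower (median 0.04), among them Prkca (0.18) and Src (0.12), a kinase that acts on GluN2 subunits. These counts, and those of the next lists, stand beside 13.2% of all genes called higher and 13.2% called lower. The lists were chosen with results of these data known. The fluoxetine change went with transcript length over all genes, as given above. The lengths of the listed genes were not taken into account, and their part in these counts was not tested.

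Of 14 trafficking genes 5 were higher and 1 lower (median 0.05), with Git1 at 0.22. Of 11 auxiliary and extracellular partners 5 were higher and 1 lower (median 0.06), with Neto1 at 0.18 and Tmem35a at -0.21. Of 12 transcription factors 4 were higher and 1 lower (median 0.07), among them Creb1 (0.16). Of 11 other ionotropic glutamate receptors 4 were higher and 0 lower (median 0.05), among them the kainate receptor genes Grik4 (0.26) and Grik5 (0.11). Of 12 genes for agonists and co-agonists 2 were higher and 0 lower (median 0.03), among them Slc17a7 (0.13), a share near that of all genes.

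With lithium averaged over genotypes these 8 lists held 7 calls higher and 1 lower, where 5.54% of all genes were called higher and 4.67% lower. Called higher were 1 of 12 agonist genes, 1 of 14 scaffolds, 1 of 18 signalling partners and 2 of 16 kinases, phosphatases and anchors. So were 1 of 14 trafficking genes, 1 of 12 transcription factors and 0 of 11 auxiliary partners. Of 11 other ionotropic glutamate receptors 0 were higher and 1 lower. The share called higher was near that of all genes. Higher were Slc1a4 (0.08), Homer1 (0.24), Rasgrp1 (0.15), Ptpn5 (0.17), a phosphatase that removes phosphate from GluN2B, Src (0.08), Git1 (0.18) and Rcor1 (0.11), and lower was the kainate receptor gene Grik1 (-0.16). Of 7 inhibitory neuron markers 1 was called higher and 0 lower with lithium (median log2 change 0.01), and that 1 was Pvalb (0.45, limma adjusted p = 1.24e-05). Also called higher were 1 of 7 excitatory neuron markers (Neurod2, 0.23, limma adjusted p = 0.0138, list median 0.10) and 1 of 3 endothelial markers (Flt1, 0.13, limma adjusted p = 0.00504, list median 0.08). No astrocyte, oligodendrocyte, oligodendrocyte precursor, microglia or blood marker was called. The parts of other cell types in the subunit results were not tested. Inhibitory neuron markers summed to 21058 to 27477 in HT lithium, 22562 to 30869 in HT vehicle, 22704 to 36129 in WT lithium and 23245 to 37245 in WT vehicle libraries.

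Promoter sequence was at hand for 3 of the 6 genes (RefSeq, GRCm38.p6, 250 bases before to 50 after the start). The windows were searched on both strands for the NRF1 motif, the GC box (GGGCGG), CRE (TGACGTCA) and the left part of RE1 (TTCAGCACC), motifs of factors tied to subunit genes. The GC box was found 1 time in Grin1, at bases 9 to 14 after the start, and 3 times in Grin2c, where 2 of the matches share a base. Of all 32851 windows 35.7% hold it, 4.6% hold NRF1, 1.79% CRE and 0.371% the RE1 part, none of which is in the windows of Grin1, Grin2c or Grin2d. The 250 bases before the start are shown for Grin1, which was called with fluoxetine, and Grin2c, which was not, with GC boxes in capitals (minus strand, 5′ to 3′).
Grin1 (chr2:25319188-25319437): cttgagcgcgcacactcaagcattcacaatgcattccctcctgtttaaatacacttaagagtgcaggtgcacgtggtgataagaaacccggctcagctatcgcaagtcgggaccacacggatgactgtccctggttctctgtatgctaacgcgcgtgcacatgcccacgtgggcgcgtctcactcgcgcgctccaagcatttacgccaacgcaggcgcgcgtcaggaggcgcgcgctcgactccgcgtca
Grin2c (chr11:115267244-115267493): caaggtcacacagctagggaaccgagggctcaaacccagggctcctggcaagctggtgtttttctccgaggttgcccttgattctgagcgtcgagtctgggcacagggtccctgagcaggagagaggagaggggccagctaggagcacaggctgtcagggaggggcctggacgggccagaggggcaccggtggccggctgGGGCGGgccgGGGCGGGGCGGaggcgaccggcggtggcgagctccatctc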

How the data were processed

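Prefrontal cortex RNA was sequenced, and the labels' protocols name Illumina's TruSeq Stranded mRNA as the library kit. The deposited table holds a normalized signal per gene: per the submitters' processing notes, Salmon 0.11.2, DESeq2 1.19.11 and R 3.6.0 were used on GRCm38, and the strand setting is not given in the sources used here. Values were whole multiples of 1 read's worth (within 0.1) for only 28.4% to 66.8% of low genes in a library, so no read counts were recovered. The groups, of which 12 are of genotype, drug and sex, came from the labels, and 51285 of 51456 identifiers matched a gene symbol.

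Genes with a mean of at least 10 (16919) entered limma 3.58.1 (R 4.3.3, trend and robust options) on log2(value + 1), with 12 group means and 47 residual degrees of freedom. Sexes were weighted equally, and p-values were adjusted by Benjamini-Hochberg over all genes. Fold changes on this scale understate low genes. The Grin2a to Grin2b ratio was compared by permutation within sex. Relations over libraries used 100000 permutations. The script was tested on simulated data. The text names the 6 members, Grin3b, Grina, the 3 genes most correlated with each member and up to 3 called genes per list. Members, lists and tests were chosen with earlier results of these data known. Replicate numbers did not pair libraries, no batch is labelled, and Grin1os, an antisense gene inside Grin1, was between 0 and 8.11. Alternatives tried were other scalings, filters and pseudocounts, length corrections, and leaving out each library. Some genes named by these rules and some sequences are not reported here.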

Additional observations from a re-analysis of the deposited data

Results flagged for a closer look

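Of 84 groups of 4 or 5 libraries of 1 sex that were looked at for a value far from the others, 6 held one, and chance gives about 1 in 20. Grin1 was 15956 in HT fluoxetine female replicate 2, against 17706 to 18361 in the other females of that group, and 19702 in HT fluoxetine male replicate 3, against 18139 to 18294 in the other males. Grin2a was 10504 in HT vehicle female replicate 1, against 6463 to 7607 in the others. Grin2b was 36557 in WT fluoxetine male replicate 4, against 28803 to 29922, and 18279 in WT vehicle female replicate 1, against 23229 to 24224. Grin3a was 2663 in WT fluoxetine female replicate 5, against 1782 to 2002.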

How the results depend on the processing

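The number of subunits called was the same under most alternatives. With the length slope as a covariate it was 0 for fluoxetine in WT, 1 in HT and 1 averaged, 2 for fluoxetine against lithium in WT (also 2 with the length and GC trend removed) and 0 for HT lithium against WT vehicle (also 0 with the bulb covariate, and 2 with the compared groups alone). Lithium averaged over genotypes gave 1, Grin3a, under library-sum scaling, quantile normalization, length and GC removal, the bulb covariate, the compared groups alone and without the libraries that stood apart. HT against WT under lithium gave 1 with the compared groups alone (Grin2a 0.16, limma adjusted p = 0.0346). The cause was not tested. The bulb covariate and the bulb slope below were chosen after seeing the data.

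Leaving out 1 library moved the lithium count between 0 and 1 in HT, where Grin2a was called without HT vehicle female replicate 1 (0.19, limma adjusted p = 0.029). Averaged over genotypes Grin2a was called higher with lithium without HT vehicle female 1 (0.14, limma adjusted p = 0.0149). In the same comparison Grin3a was called lower without HT vehicle male 5, WT fluoxetine female 5 or WT vehicle female 1. Leaving out 1 library thus moved the averaged lithium count between 0 and 1 as well. It moved fluoxetine in WT between 2 and 3, where Grin1 was called without HT fluoxetine female 2, HT vehicle female 4, WT fluoxetine female 3, WT fluoxetine male 1, WT vehicle female 5 or WT vehicle male 5, and Grin3a without WT fluoxetine female 2. It moved fluoxetine against lithium in HT between 3 and 4, where Grin2a was called without HT fluoxetine female 5, HT lithium female 2 or HT vehicle female 1, and also with the bulb covariate (0.15, limma adjusted p = 0.0403).

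For the ratio, the lithium difference in WT was 0.16 to 0.20 with 1 library left out and stayed called under every alternative. With the bulb slope taken off it was 0.17 (permutation, adjusted p = 0.00529), while HT lithium against WT vehicle fell to 0.10 and missed the threshold (adjusted p = 0.0586), and the uncalled values were -0.0101 for fluoxetine in WT, -0.0230 in HT, -0.0166 averaged and 0.0178 for sex. Without the libraries that stood apart fluoxetine gave -0.0424 in HT and -0.00575 averaged. With 1 library left out, the uncalled ratio differences ran from -0.0424 to 0.0612 for fluoxetine in HT, -0.0156 to 0.0309 in WT, -0.0172 to 0.0346 averaged, -0.10 to 0.00329 for fluoxetine against lithium in HT, -0.0323 to 0.00221 for sex and -0.0457 to 0.000868 for HT against WT under lithium. HT fluoxetine against WT vehicle ran from 0.0599 to 0.163 (called without HT fluoxetine female 1), and HT against WT under vehicle from 0.0734 to 0.123 (called without HT vehicle female 2 or 4).

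Same-numbered libraries did not deviate together (median r = -0.00331 over 145 pairs). A replicate block gave 0.10 for the ratio in HT against WT under vehicle, now past the threshold (permutation, adjusted p = 0.0457), and changed no count of called subunits.

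Over all genes, fluoxetine called 63 genes in WT with the length slope as a covariate and 1106 with the length and GC trend removed, against 2500, and 1629 averaged with the covariate, against 4476. Under library-sum scaling 30.4% of genes called with fluoxetine were higher, against 49.98%, and 43.4% with lithium, against 54.3%. Without the libraries that stood apart lithium called 1358 genes in HT, against 847, and 589 in WT, against 376. With no filter on low values it called 448 in HT and 212 in WT.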

Other observations

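Grina, whose name recalls the receptor but whose product is not a subunit, was between 7365 and 12057 over the 59 libraries.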
